A study of Homo sapiens with 4 samples.

Results

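The genes described here are 10 neuronal RNA-binding and splicing regulators: NOVA1, NOVA2, ELAVL1, ELAVL2, ELAVL3, ELAVL4, RBFOX2, SRRM4, CELF3 and PTBP2. They are 10 of the 60676 genes of the deposited expression table and were picked by symbol, with their counts and TPM values (a level per transcript length) in both groups already known. NOVA1 and ELAVL2 were included because they had no reads in HEK293. The levels and fold changes of the 10 genes are therefore given as a description, with no p-value. Counts and TPM summarise whole genes and say nothing of which exons were included in any transcript.

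The series compared 2 groups with 2 RNA-seq libraries each, to describe what overexpression of synphilin-1 does to gene expression. HEK293, labelled WT, is a transformed line derived from human embryonic kidney and widely used for transgene expression. Synph-293 is labelled as that line overexpressing synphilin-1, the product of SNCAIP, which binds alpha-synuclein and is found in Lewy bodies. Both groups were untreated and grown in DMEM with fetal bovine serum, penicillin and streptomycin. The sources used here do not give the vector or promoter of the transgene, or whether Synph-293 was 1 clone or a pool. Whether the cultures behind a group's libraries were separate is not given either. The spread between the libraries of a group, against which p-values set the group difference, may be technical.

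NOVA proteins are KH-domain proteins first found as targets of autoimmunity in paraneoplastic neurological disease, and they control alternative exons of synaptic transcripts. ELAV-like proteins bind AU-rich elements and affect the stability, translation and splicing of the bound RNA. ELAVL1 (HuR) is present in most cell types, whereas ELAVL2 (HuB), ELAVL3 (HuC) and ELAVL4 (HuD) are mainly neuronal. RBFOX2 and its relatives direct exon choice from intronic sites, SRRM4 (nSR100) promotes the inclusion of neural microexons, and CELF3 is a neural member of the CELF family. PTBP2 replaces PTBP1 during neuronal differentiation, and PTBP1 represses PTBP2 by causing an exon of its transcript to be skipped.

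The start-site windows of NOVA1, NOVA2 and ELAVL2, the genes with clearly more reads in Synph-293, are shown with that of SRRM4, which had between 0 and 7 reads in each library. Each window is from RefSeq (GRCh38.p14), read 5′ to 3′ on the gene's strand, and runs from 250 bases before to 50 after the annotated start. Capitals mark CG dinucleotides. The windows lie at chr14:26597984-26598283 for NOVA1, chr19:45973816-45974115 for NOVA2 and chr9:23826191-23826490 for ELAVL2, all on the minus strand, and at chr12:118981291-118981590 on the plus strand for SRRM4.
NOVA1: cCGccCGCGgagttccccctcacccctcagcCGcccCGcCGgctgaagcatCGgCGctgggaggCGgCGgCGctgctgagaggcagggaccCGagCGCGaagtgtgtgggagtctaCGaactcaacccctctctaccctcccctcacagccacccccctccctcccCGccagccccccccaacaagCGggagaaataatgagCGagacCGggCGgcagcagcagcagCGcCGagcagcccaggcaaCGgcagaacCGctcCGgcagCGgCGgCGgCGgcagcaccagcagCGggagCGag
NOVA2: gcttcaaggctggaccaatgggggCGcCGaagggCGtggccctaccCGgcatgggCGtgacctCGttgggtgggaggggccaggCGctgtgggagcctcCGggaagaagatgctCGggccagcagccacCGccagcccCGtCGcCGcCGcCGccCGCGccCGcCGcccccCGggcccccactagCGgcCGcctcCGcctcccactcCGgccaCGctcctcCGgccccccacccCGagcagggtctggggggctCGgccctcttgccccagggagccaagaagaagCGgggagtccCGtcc
ELAVL2: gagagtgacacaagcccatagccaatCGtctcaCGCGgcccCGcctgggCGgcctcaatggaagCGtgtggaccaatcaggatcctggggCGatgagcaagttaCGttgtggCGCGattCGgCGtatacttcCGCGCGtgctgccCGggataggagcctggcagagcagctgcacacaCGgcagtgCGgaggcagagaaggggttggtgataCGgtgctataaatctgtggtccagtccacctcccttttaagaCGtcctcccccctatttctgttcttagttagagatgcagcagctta
SRRM4: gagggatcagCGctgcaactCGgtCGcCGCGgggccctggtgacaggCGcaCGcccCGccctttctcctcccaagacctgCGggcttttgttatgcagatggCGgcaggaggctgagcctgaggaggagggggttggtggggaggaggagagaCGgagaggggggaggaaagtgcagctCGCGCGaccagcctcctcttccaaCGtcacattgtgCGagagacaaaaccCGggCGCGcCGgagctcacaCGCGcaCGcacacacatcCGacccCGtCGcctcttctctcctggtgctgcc

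These 4 windows held 31 CG dinucleotides in NOVA1, 30 in NOVA2, 26 in SRRM4 and 20 in ELAVL2. The median of the 35116 windows in the RefSeq table was 14. At least as many as in NOVA1 were found in 20.7% of all windows, as in NOVA2 in 22.4%, as in SRRM4 in 30.1% and as in ELAVL2 in 41.2%. Counts above the median were thus shared by the genes with more reads in Synph-293 and by SRRM4. Of the other members with a window, ELAVL4 had 20, whereas PTBP2 with 11 and CELF3 with 9 were below the median. The RefSeq start of ELAVL2 lay 97 bases from the 5′ end of the gene in the deposited annotation.

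Short motifs were searched on both strands of 1 window for each of the 7 genes that the table held. It was the window with its start nearest to the 5′ end in the deposited annotation. That start lay 24026 bases from the 5′ end for ELAVL4 and 973 bases for PTBP2. The table listed 3 windows for NOVA1, 6 for ELAVL2 and 7 for ELAVL4, and their other windows were not searched. The letters TTCAGCACC, the core of the site of the neuronal repressor REST, were in none of the 7 and in 0.376% of all windows. GGGCGG, a GC box, was found 3 times in NOVA1, 2 times in NOVA2 and 1 time each in ELAVL2, SRRM4, CELF3 and PTBP2, and is in 45% of all windows. CCAAT was found 2 times in ELAVL2 and 1 time each in NOVA2 and ELAVL4, and is in 34.6% of all windows. TATAAA was found 1 time, in ELAVL2, and is in 11.5% of all windows. The E-box CANNTG was found 3 times in PTBP2 and 1 time each in ELAVL2, SRRM4 and CELF3, and is in 68.7% of all windows. TGACG, the core of a cAMP response element, was found 1 time, in SRRM4, and is in 24.6% of all windows. No motif of the search was shared by NOVA1, NOVA2 and ELAVL2 without being present in SRRM4 as well.

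The libraries held between 13284417 and 16998732 counts, and mitochondrial genes took 7.28% to 10.9% of them with no split by group. SNCAIP had 17 and 16 counts in HEK293 and 22911 and 24834 in Synph-293, as the labels state. A gene was tested if it passed a filter on low counts, which left 16421 genes, and p was adjusted over all of them. Of these, 16.6% passed an adjusted p of 0.05 in edgeR's quasi-likelihood test, 10.0% as higher in Synph-293 and 6.58% as lower. These shares, with a median log2 fold change of -0.01 over all genes tested, are the reference for the count and median of every list given here.

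Of the 10 genes, 6 passed the filter on low counts, and ELAVL3, ELAVL4, SRRM4 and CELF3, with at most 10 counts in any library, did not. In the fit over all genes, NOVA1, NOVA2 and ELAVL2 were called higher in Synph-293 and none of the 10 was called lower, beside 10.0% of all genes tested that were called higher. Since those values chose the genes, the count is no test of them and nothing is read from it. The libraries of the groups did not overlap in CPM (counts scaled to library size) in 4 of the 6, all higher in Synph-293. Of all genes tested, 59.6% did not overlap and 30.5% were higher without overlap. NOVA1 and ELAVL2 were chosen for having no reads in HEK293, so their lack of overlap was fixed in advance. Nothing is read from this count either. In libraries of bulk RNA, more cells with a transcript and more transcript per cell cannot be told apart.

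NOVA1 (ENSG00000139910, chr14:26443090-26598033, minus strand, GRCh38.p13 as are all gene positions here) had 0 counts in both HEK293 libraries, 44 in Synph-293 replicate 1 and 50 in Synph-293 replicate 2. Its TPM was 0, 0, 1.86 and 2.44 in the same order. Both Synph-293 libraries were above both HEK293 libraries, where the gene was listed at 0. A count of 0 allows up to 3 counts per library, or 0.178 and 0.225 CPM in HEK293. The mean CPM of NOVA1 in Synph-293, 2.85, was 14.1 times the mean of these limits. Limits of this kind cover only the counting error of the listed 0. The counting error in Synph-293 is left out, so the ratio is not a strict lower bound.

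NOVA2 (ENSG00000104967, chr19:45933734-45973865, minus strand) had 19 and 10 counts in HEK293 and 253 and 256 in Synph-293. In CPM these were 1.13 and 0.749 in HEK293 and 15.1 and 15.7 in Synph-293. The Synph-293 libraries were close to each other and far above both HEK293 libraries. The log2 fold change was 4.0 ± 0.27 (SE), a 16-fold difference. It stayed between 3.76 and 4.35 when any 1 library was left out and was 3.68 after the median fold change of the 30 nearest genes was removed. On the log2(TPM + 1) scale, which understates the change of low genes, the difference was 1.73.

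The summed TPM of NOVA1 and NOVA2 was 0.200 and 0.210 in HEK293 and 4.68 and 5.61 in Synph-293. In Synph-293 NOVA1 made up 39.7% and 43.5% of it, and 14.8% and 16.3% of the counts, which are not divided by length. In HEK293 only NOVA2 was detected, with 19 and 10 counts. The 3 counts that a listed 0 allows would put NOVA1 at up to 13.6% and 23.1% of the family's counts there. The limit of HEK293 replicate 1 lay below both Synph-293 shares by counts, and that of replicate 2 lay above them. These limits leave out the counting error of NOVA2 and of the Synph-293 shares. Whether the share of NOVA1 differed between the groups was therefore not settled in either HEK293 library. The gap between both kinds of share follows from length: the deposited values imply 2087 and 1737 bases for NOVA1 and 7917 and 6840 bases for NOVA2 in the Synph-293 libraries.

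**Figure D1:**
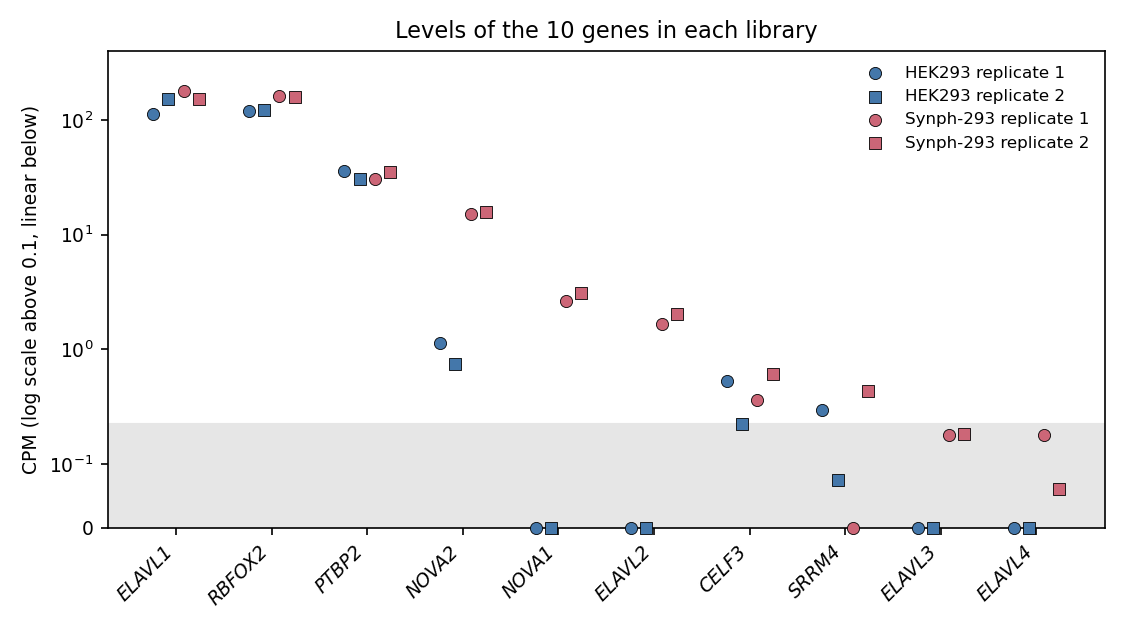
CPM of the 10 genes (horizontal axis) in each of the 4 libraries, on an axis that is logarithmic above 0.1 CPM and linear below. The grey band ends at 0.225 CPM, the largest value that 3 counts stand for in any library. NOVA2, NOVA1 and ELAVL2 have both Synph-293 libraries far above both HEK293 libraries, PTBP2 has them interleaved, and ELAVL3 and ELAVL4 lie inside the band.

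ELAVL2 (ENSG00000107105, chr9:23690104-23826337, minus strand) had 0 and 0 counts in HEK293 and 28 and 33 in Synph-293. Its TPM in Synph-293 was 0.820 and 0.920. As for NOVA1, the gene was listed at 0 in HEK293 and was present in both Synph-293 libraries. Its mean CPM in Synph-293 was 9.18 times the mean of the HEK293 limits. The 30 genes tested nearest to ELAVL2 went the other way, with a median log2 fold change of -0.30, 0 called higher and 8 called lower.

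ELAVL3 (ENSG00000196361, chr19:11451326-11481046, minus strand) had 0 and 0 counts in HEK293 and 3 and 3 in Synph-293. ELAVL4 (ENSG00000162374, chr1:50024029-50203786, plus strand) had 0 and 0 in HEK293 and 3 and 1 in Synph-293. Neither rose above the 3 counts that a listed 0 allows, so no fold is given, and a difference was not detectable at this depth. Within the neuronal genes of the family, ELAVL2 accordingly made up 79.6% and 86.8% of the summed TPM of 1.03 and 1.06 in Synph-293.

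ELAVL1 (ENSG00000066044, chr19:7958573-8005659, minus strand), the widely expressed relative, had a TPM of 72.1 and 110 in HEK293 and 123 and 98.7 in Synph-293. Its CPM was 112, 153, 177 and 151 in the same order. The groups overlapped, because HEK293 replicate 2 was above Synph-293 replicate 2. The log2 fold change of 0.31 ± 0.19 (SE) moved between 0.10 without HEK293 replicate 1 and 0.55 without HEK293 replicate 2, and the genes around ELAVL1 had a median of 0.28. ELAVL1 still made up 99.2% and 98.9% of the summed TPM of the ELAVL family in Synph-293, after 100% in both HEK293 libraries, and ELAVL2 reached 0.662% and 0.923%.

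RBFOX2 (ENSG00000100320, chr22:35738736-36028824, minus strand) had a TPM of 41.4 and 40.0 in HEK293 and 50.8 and 49.3 in Synph-293. The CPM was 120 and 123 in HEK293 and 161 and 157 in Synph-293, and the groups did not overlap. The log2 fold change was 0.39 ± 0.15 (SE) and fell to 0.17 once the median of the 30 nearest genes, 0.23, was removed.

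RBFOX3 was not among the 10 genes; it encodes NeuN, the nuclear antigen used to stain mature neurons. It had 1 and 8 counts in HEK293 and 102 and 106 in Synph-293, with both Synph-293 libraries far above both others. The log2 fold change was 4.35 ± 0.50 (SE), with an adjusted p of 0.000201 in edgeR's quasi-likelihood test. The call held in 13 of 13 alternative settings, which include a crossed replicate block chosen after seeing the data. The size of the change depended on the HEK293 libraries, with 3.37 without replicate 1 and 6.56 without replicate 2. RBFOX2 went from 99.9% and 98.3% of the summed TPM of the RBFOX family in HEK293 to 87.9% and 82.6% in Synph-293, and RBFOX3 from 0.0724% and 1.67% to 12.1% and 17.4%. RBFOX3 was assigned a short length in Synph-293, 1285 and 866 bases, which raises its TPM beside its counts. By counts RBFOX2 made up 96.2% on average in Synph-293. RBFOX1, the third gene of the family and a neuronal and muscle splicing factor, had 0 counts in all 4 libraries.

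**Figure D2:**
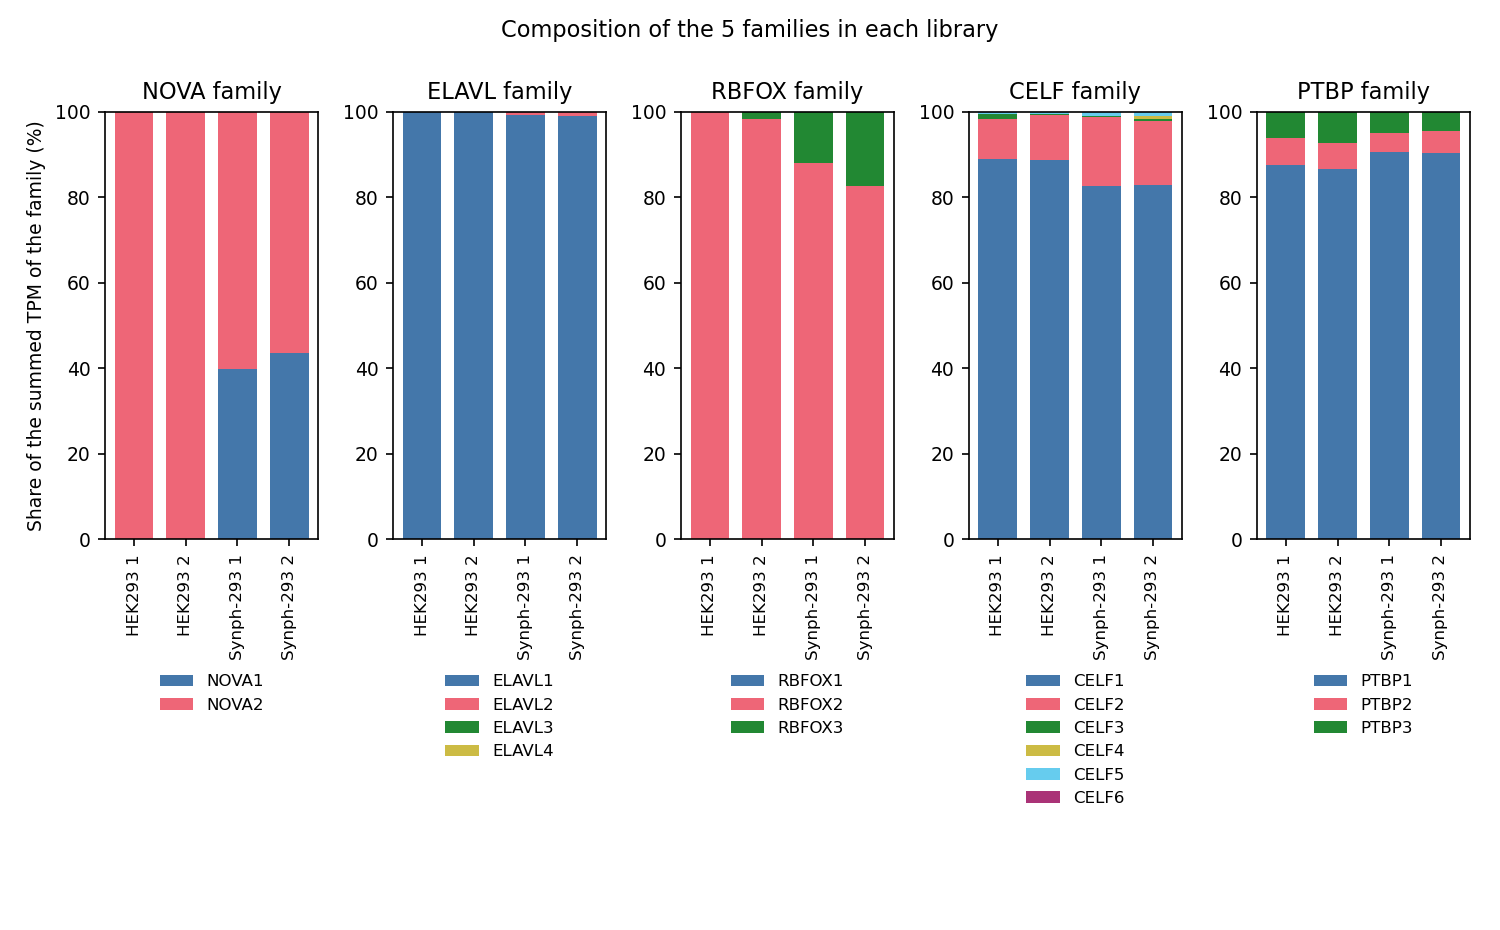
Share of the summed TPM of each family (vertical axis, percent) taken by each of its genes, as stacked bars for the 4 libraries. The HEK293 bars of the NOVA family rest on 19 and 10 counts. RBFOX3 takes 12.1% and 17.4% in the Synph-293 bars, whereas ELAVL1, CELF1 and PTBP1 take at least 82.5% of their families in every library.

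PTBP2 (ENSG00000117569, chr1:96721665-96823738, plus strand) had a TPM of 23.8 and 26.8 in HEK293 and 21.9 and 26.1 in Synph-293. The CPM was 35.6, 30.3, 30.2 and 35.4 in the same order, so the libraries of the groups interleaved. The log2 fold change was -0.0076 ± 0.17 (SE), and its sign changed with the library left out, from -0.13 without Synph-293 replicate 2 to 0.12 without Synph-293 replicate 1. The 30 nearest genes had a median of -0.26, with 1 called higher and 5 called lower, and with that median removed the value for PTBP2 was 0.26.

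PTBP1, the repressor of PTBP2 and its counterpart in most cells outside the nervous system, did not pass the test on counts. The CPM of PTBP1 was 589 and 593 in HEK293 and 606 and 583 in Synph-293, a log2 fold change of 0.0086 ± 0.17 (SE) with an adjusted p of 0.981 in edgeR's quasi-likelihood test. The TPM of PTBP1 was 336 and 379 in HEK293 and 447 and 472 in Synph-293, without overlap. Both scales differ because the length that the deposited values imply for PTBP1 was 2459 and 2252 bases in HEK293 and 2002 and 1702 in Synph-293. That is a log2 ratio of -0.35 in length, and 1.13% of the 9666 genes with an RPKM of at least 5 in every library had a lower ratio. Limma on log2(TPM + 1) or log2(TPM + 0.1) did not call PTBP1 either, and its lowest adjusted p in any setting was 0.312.

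The TPM ratio of PTBP1 to PTBP2 was 14.1 and 14.2 in HEK293 and 20.5 and 18.1 in Synph-293. PTBP2 made up 6.21% and 6.11% of the summed TPM of the PTBP family in HEK293 and 4.43% and 5.00% in Synph-293. By counts, which are not divided by length, the groups overlapped, with 4.80% and 3.94% in HEK293 and 4.03% and 4.92% in Synph-293. The CPM of both genes overlapped between the groups. PTBP3, the third gene of the family, had a log2 fold change of -0.28 ± 0.17 (SE) and an adjusted p of 0.274 in edgeR's quasi-likelihood test.

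**Figure D3:**
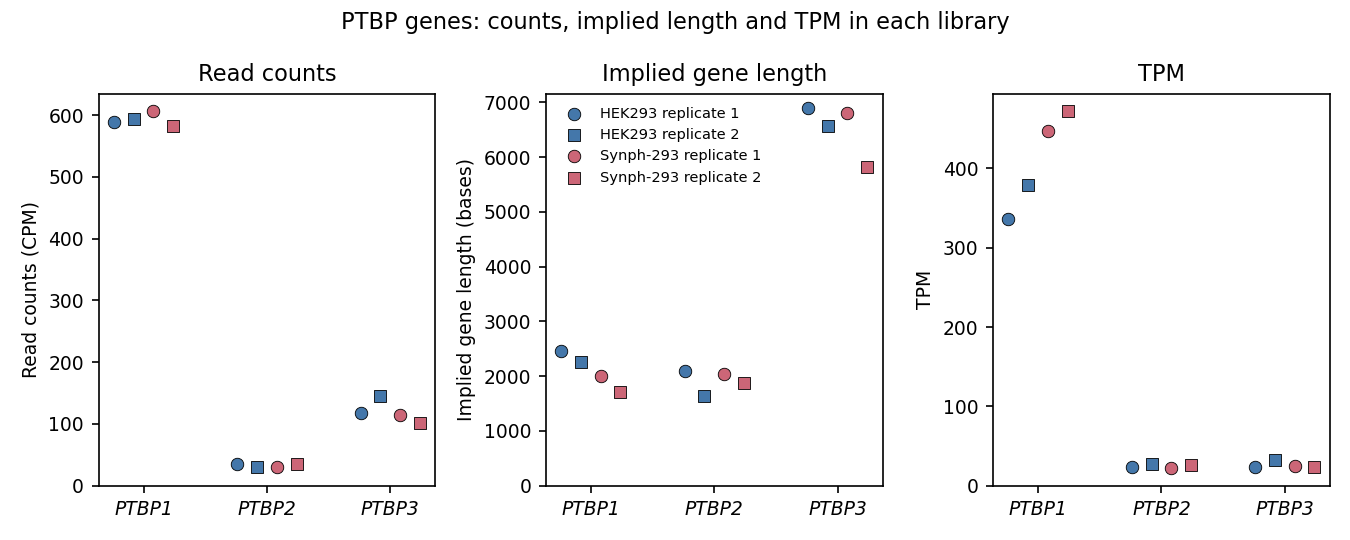
The 3 PTBP genes in each library as CPM, as the gene length in bases that the deposited values imply, and as TPM. The PTBP1 points overlap between the groups in CPM, separate in length with Synph-293 lower, and separate in TPM with Synph-293 higher.

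SRRM4 (ENSG00000139767, chr12:118981541-119163051, plus strand) had 5 and 1 counts in HEK293 and 0 and 7 in Synph-293. CELF3 (ENSG00000159409, chr1:151700058-151716803, minus strand) had 9 and 3 in HEK293 and 6 and 10 in Synph-293. Neither gene separated the groups, and each varied more within Synph-293 or HEK293 than between them. For SRRM4 the ratio of Synph-293 to HEK293 was 1.07, with an exact 95% interval for counting error of 0.307 to 3.84. For CELF3 the ratio was 1.22, with an interval of 0.541 to 2.82. A level 2 times higher in Synph-293 lies inside both intervals.

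SRRM3, a relative of SRRM4 that shares its role in neural microexons, was more abundant than SRRM4. It had 29 and 21 counts in HEK293 and 73 and 58 in Synph-293 and made up between 96.2% and 100% of the summed TPM of the pair. Its log2 fold change was 1.26 ± 0.30 (SE), with an adjusted p of 0.0148 in edgeR's quasi-likelihood test and 0.0920 without Synph-293 replicate 1. SRRM2, a scaffold of nuclear speckles, had a log2 fold change of 0.70 ± 0.22 (SE) and an adjusted p of 0.0514 in edgeR's quasi-likelihood test and 0.000858 in DESeq2, and its 30 nearest genes had a median of 0.48. SRRM1, a splicing coactivator, had 0.13 ± 0.17 (SE).

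In the CELF family, CELF2 rose from 26.9 and 31.2 CPM in HEK293 to 49.0 and 46.8 in Synph-293. That is a log2 fold change of 0.72 ± 0.16 (SE), with an adjusted p of 0.00937 in edgeR's quasi-likelihood test, 0.0711 without Synph-293 replicate 1 and 0.0861 in limma on log2(TPM + 1). CELF2 is abundant in brain, heart and lymphocytes. CELF1, the widely expressed gene of the family, had a log2 fold change of 0.10 ± 0.16 (SE) and took 88.9% and 88.8% of the summed TPM in HEK293 and 82.5% and 82.7% in Synph-293. CELF5, a neural relative, had 0.52 ± 0.36 (SE) and was not called. CELF4 had 0, 0, 2 and 4 counts and CELF6 0, 3, 0 and 4, both too few to test.

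Among the 12 relatives of the RBFOX, CELF, PTBP and SRRM families, 9 were tested, 3 were called higher (RBFOX3, SRRM3 and CELF2) and 0 lower in edgeR's quasi-likelihood test. The 9 had a median of 0.52 on the log2 scale. DESeq2 called 4 higher, with SRRM2 added, and without Synph-293 replicate 1 only RBFOX3 was called. The count of lower genes was also 0 at an unadjusted p under 0.05, in DESeq2 and in limma.

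**Figure D4:**
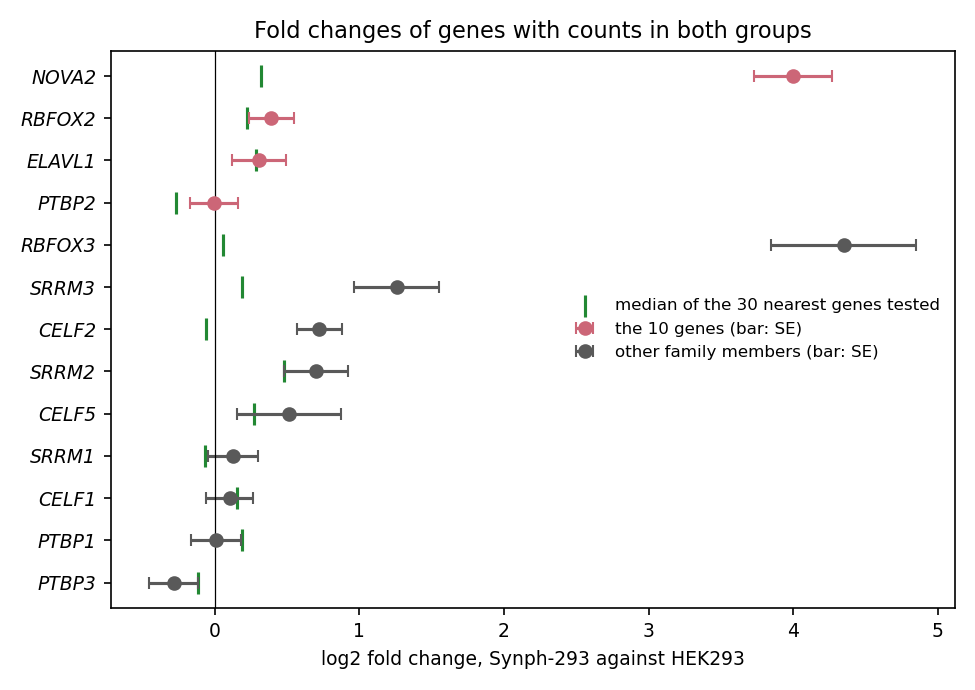
Log2 fold change of Synph-293 against HEK293 (horizontal axis, bars are SE) for 4 of the 10 genes and 9 relatives, with the median of the 30 nearest genes tested as a green mark. NOVA2 at 4.0 and RBFOX3 at 4.35 lie far from their neighbours, while ELAVL1 at 0.31 lies beside its own mark at 0.28.

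Ordered by TPM within HEK293, ELAVL1 stood first, then RBFOX2, then PTBP2, each apart from the next beyond the spread of the libraries. CELF3 and NOVA2 followed, could not be ordered by their spread and were both under 1 TPM, with SRRM4 under them and the other 4 genes listed at 0. In Synph-293 the first 3 places were the same. NOVA2 at 2.82 and 3.17 TPM, NOVA1 and ELAVL2 followed in that order without overlap, and CELF3, ELAVL4, ELAVL3 and SRRM4 formed an overlapping end. NOVA2, NOVA1 and ELAVL2 thus stood between PTBP2 and CELF3 in Synph-293.

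Of the 16421 genes tested, 51 had 0 counts in both HEK293 libraries, which is 0.311%. Such a gene was tested only if its Synph-293 counts passed the filter. Genes with fewer reads there, such as ELAVL3 and ELAVL4, are therefore not among them. By CPM in Synph-293, NOVA1 stood in place 12 and ELAVL2 in place 21 among these 51. The closest patterns to NOVA1, by the Euclidean distance of log2 CPM over the 4 libraries, were those of ASTN1 with 43 and 44 counts in Synph-293, PCDHA5 with 45 and 43, and TAFA5 with 50 and 38. PCDHA5 shares its constant exons with the other alpha protocadherins, so its count is uncertain. The closest to ELAVL2 were HSPA2 with 31 and 36 counts, GALC with 28 and 38 and NRXN3 with 26 and 38. Each of these 6 genes had 0 counts in both HEK293 libraries, which the measure of likeness requires of them in practice. ASTN1 encodes a neuronal adhesion protein, NRXN3 a presynaptic adhesion protein, HSPA2 a heat shock protein and GALC a lysosomal enzyme.

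REST, the repressor of many neuronal genes including SRRM4, had 57.8 and 61.4 CPM in HEK293 and 53.5 and 53.0 in Synph-293. The log2 fold change was -0.16 ± 0.15 (SE), with an adjusted p of 0.488 in edgeR's quasi-likelihood test. Of 16 genes for REST and its corepressors, 1 was called higher and 0 lower, with a median of -0.08, and 0 genes were lower at an unadjusted p under 0.05, in DESeq2 or in limma. The called gene was RCOR2, a CoREST protein, at 0.78 ± 0.22 (SE) with an adjusted p of 0.0352, which was 0.255 without Synph-293 replicate 1 and 0.0606 without HEK293 replicate 1.

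Other RNA-binding proteins with roles in neural or muscle splicing, transport or translation did not move in one direction. Of 44 listed, 42 were tested, 4 were higher and 4 lower, with a median of -0.05. KHDRBS3, which controls neurexin exons, rose by 2.82 ± 0.35 (SE) on the log2 scale, with an adjusted p of 0.000323 in edgeR's quasi-likelihood test. CPEB2, a regulator of translation through the poly(A) tail, rose by 1.96 ± 0.21 (SE), with an adjusted p of 0.000132. PCBP3, a poly(C)-binding protein, rose by 2.18 ± 0.50 (SE), with an adjusted p of 0.0135 that was 0.0539 in DESeq2, and its value was 1.54 without HEK293 replicate 1 and 3.06 without HEK293 replicate 2. CPEB1, a relative of CPEB2, had a log2 fold change of -0.78 ± 0.20 (SE) and an adjusted p of 0.0205, and without either Synph-293 library 0 of the list were called lower. MBNL1 at -0.21 ± 0.15 (SE), MBNL2 at -0.52 ± 0.17 and QKI at -0.35 ± 0.16, which control developmental splicing, were not called, nor were MSI1 at 0.05 and KHDRBS1 at 0.03.

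The general splicing factors gave no calls. Among 20 hnRNP genes 0 were called in edgeR's quasi-likelihood test, with a median of 0.20; 5 were higher at an unadjusted p under 0.05, DESeq2 called 1 higher, and 6 were called without HEK293 replicate 2. Among 11 SR protein genes 0 were called, with a median of 0.08; 0 passed an unadjusted p under 0.05, DESeq2 called 0, and 1 was called without HEK293 replicate 2.

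Genes whose mRNAs are known to be bound by ELAV-like proteins were listed for their level. Of 20 tested, 6 were higher and 1 lower, beside 10.0% and 6.58% of all genes tested, with a median of 0.20, and without Synph-293 replicate 1 the higher count was 3. CCND1, which encodes cyclin D1, rose by 1.67 ± 0.17 (SE) on the log2 scale, with an adjusted p of 8.92e-05 in edgeR's quasi-likelihood test. PTGS2, which encodes cyclooxygenase 2, had 6 and 1 counts in HEK293 and 28 and 23 in Synph-293. Its log2 fold change of 2.7 was 4.22 without HEK293 replicate 1 and 2.09 without HEK293 replicate 2. MYCN had 11 and 5 counts in HEK293 and 44 and 38 in Synph-293. FOS had a log2 fold change of -1.09 ± 0.28 (SE), which rested on 28.8 CPM in HEK293 replicate 1 against 14 in replicate 2, and without replicate 1 the value was -0.47 and the adjusted p rose from 0.0234 to 0.124.

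Genes with exons known to be controlled by NOVA, PTBP, RBFOX or SRRM4 proteins were counted for their level only. Of 24 listed, 20 were tested, 3 were higher and 2 lower, and the median was -0.01. DAB1, the reelin adaptor with NOVA-controlled exons, had 2 and 3 counts in HEK293 and 92 and 60 in Synph-293. AP1S2, a clathrin adaptor subunit, rose by 1.88 ± 0.17 (SE) on the log2 scale, and DLG4, which encodes PSD-95 and has an exon repressed by PTBP proteins, rose by 1.12 ± 0.17, with adjusted p of 2.64e-05 and 0.00119 in edgeR's quasi-likelihood test. APLP2, an amyloid precursor relative, had -0.93 ± 0.23 (SE), with an adjusted p of 0.0170 that was 0.207 without Synph-293 replicate 1 and 0.270 with the neighbouring genes' median removed.

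**Figure D5:**
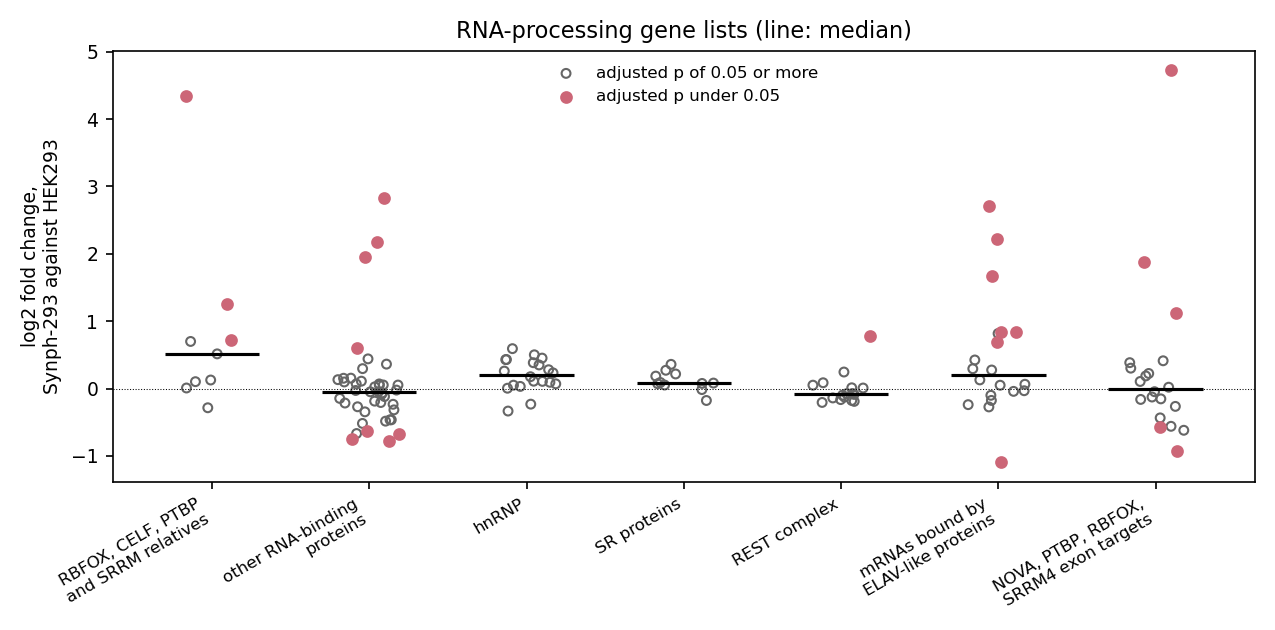
Log2 fold change of Synph-293 against HEK293 (vertical axis) for each tested gene of the 7 lists, with a line at each median. Filled points passed an adjusted p of 0.05 in edgeR's quasi-likelihood test; hnRNP and SR protein genes have none.

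Markers of cell types were read beside these values. Of 12 neuronal markers 7 were tested, 5 were higher in Synph-293 and 1, MAP2, was lower, and their summed level was 386 and 432 CPM in HEK293 and 638 and 553 in Synph-293. The higher ones were NEFL, SYP, SNAP25, TUBB3 and ENO2. UCHL1, which was not called, was the largest part of the sum, with 271 and 308 CPM in HEK293 and 296 and 247 in Synph-293. Most of the rise lay in NEFL, from 34.5 and 40.4 CPM to 177 and 160, and in ENO2, from 41.0 and 40.6 to 106 and 94.7. The adjusted p of SNAP25 was 0.0965 without Synph-293 replicate 1, and that of MAP2 was 0.0530 without Synph-293 replicate 2 and 0.0678 in limma on log2(TPM + 1). The neuronal markers STMN2 and INA were at 0 in all 4 libraries and DCX had 0, 0, 5 and 4 counts. Of 10 kidney lineage markers 7 were tested and 3 were higher (PAX2, SALL1 and OSR1), with summed levels of 38.1, 42.9, 61.8 and 61.4 CPM, and CDH6 was at 0 in all libraries. Glial markers summed to 22.7, 23.2, 21.5 and 19.0 CPM, with OLIG2 called higher and GFAP lower, and blood and endothelial markers to 37.3, 40.1, 31.4 and 36.7. OSR1 and OLIG2 each passed in 9 of 13 alternative settings, and their highest adjusted p were 0.0860 in DESeq2 and 0.179 without Synph-293 replicate 1. The part that any of these cell types has in the levels of NOVA1, NOVA2 and ELAVL2 was not tested.

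Reads of other genes could be counted in the 10 genes where sequence is shared. Of the 10, 7 overlap another annotated gene, which in 5 cases is on the opposite strand, and no overlapping gene had more than 2 counts in any library. For ELAVL3 that is close to its own level: a gene on its strand had 2 counts in Synph-293 replicate 1, beside 3 of ELAVL3. Between the 29 pairs of genes within the families, the longest identical stretch of transcript sequence was 47 bases, against reads of 150 bases, and it was 17 bases between NOVA1 and NOVA2 and 14 between PTBP1 and PTBP2. The search used the transcripts that the reference held and no genes outside the families.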

How the data were processed

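Poly(A) RNA libraries, made with a stranded kit and sequenced as read pairs per the labels' protocols, gave 2 samples labelled HEK293 and 2 labelled Synph-293. For each gene and sample the authors deposited a count, a TPM and an RPKM. The counts are whole, yet 43 to 63 genes per sample with 0 counts have a positive TPM, so the deposited counts were taken as estimated counts that had been rounded. TPM and RPKM were scaled by the authors to gene length and library size. RPKM served only to work out the implied gene length, the count divided by the library total and by the RPKM. The submitters' processing notes name the build GRCh38.p13 and, with no role or order, cutadapt 2.8, RSEM 1.3.1, STAR 2.7.1a, HTSeq 0.11.2, featureCounts 2.0.0 and Cufflinks 2.2.1. Which tool gave which values, and the strand setting, are not given in the sources used here, so antisense reads may be counted together with a gene.

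R 4.3.3 with edgeR 4.0.16 was used: filterByExpr (minimum count 10, minimum total 15), TMM, a quasi-likelihood test of the group term alone and Benjamini-Hochberg adjustment at 0.05. CPM use TMM-scaled library sizes and the biological coefficient of variation was 13.0%. The design leaves only 2 residual degrees of freedom per gene, and the dispersion behind each SE was moderated over all genes tested. Limits for genes at 0 were 3 counts per library, and reads carried no molecular identifiers. Within a group the libraries differed beyond sampling noise: the chi-square per degree of freedom was 24.7 in HEK293 and 17.3 in Synph-293. Alternatives were DESeq2 1.42.0, RLE scaling, other filters, limma 3.58.1 on log2(TPM + 1) and log2(TPM + 0.1), each library left out, the replicate block and removal of the median of the 30 nearest genes. A crossed replicate block, chosen after seeing the data, was added and counts among the alternative settings. The procedure was tested on simulated data.

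The members, the gene lists and the markers were chosen with earlier results of these data known; all 186 listed symbols were found. Text names the 10 members, SNCAIP, all family relatives, REST and up to 4 called genes per list with the largest change. Also named are not-called genes that define a role, a few further markers, and the 3 patterns nearest to NOVA1 and ELAVL2. Start-site windows were taken from RefSeq, where 7 of the 10 members matched, and transcripts for identical stretches from the reference annotation.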

Additional observations from a re-analysis of the deposited data

How the results depend on the processing

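Calls over all genes depended on the setting: 2729 genes, 1648 higher and 1081 lower. Limma called 1653 (521 lower) on log2(TPM + 1) and 1560 (1086 higher, 474 lower) on log2(TPM + 0.1). With the neighbours' median removed 1749 were called, 540 of them lower. Leaving out 1 library gave between 1551 and 4218 calls, 1083 to 2192 higher and 448 to 2026 lower; the most came without HEK293 replicate 2 and the fewest without Synph-293 replicate 2. Of the 7 gene lists, 24 members were called, and 11 to 35 with 1 library left out, with the fewest without Synph-293 replicate 1. With the replicate block 2099 genes were called, 1380 higher and 719 lower, and 20 list members. Same-numbered libraries deviated in opposite directions (r = -0.23 over 16421 genes), so a crossed replicate block, chosen after seeing the data, was run: it called 6267 genes, 3251 higher and 3016 lower, and 50 list members. The samples share only a number, and the cause was not tested. With read counts in place of TPM, mean shares moved, since counts are not divided by length. In Synph-293 they went from 58.4% to 84.4% for NOVA2, 99.1% to 98.7% for ELAVL1 and 85.3% to 96.2% for RBFOX2. Those of CELF1 and PTBP2 in Synph-293 went from 82.6% to 81.6% and from 4.71% to 4.47%. In HEK293 the shares went from 6.16% to 4.37% for PTBP2 and 88.8% to 87.1% for CELF1. Depth limits SRRM4, CELF3, ELAVL3 and ELAVL4 most, with at most 10 counts per library.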

Other observations

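All 3 genes whose pattern was nearest to that of ELAVL2, namely HSPA2, GALC and NRXN3, lie on chromosome 14, as does NOVA1, whereas ELAVL2 itself lies on chromosome 9. These 4 genes are the ones on chromosome 14 among the 51 tested genes with 0 counts in both HEK293 libraries, which is 7.84% of the 51 against 3.08% of all genes tested. Other chromosomes held as many or more, with 5 of the 51 on chromosome 4 (9.80% against 3.54% of all genes tested) and 5 on chromosome 12 (9.80% against 5.44%). Of the 506 genes tested on chromosome 14, 26 were called higher and 30 lower, with a median log2 fold change of -0.13, and the 30 genes nearest to NOVA1 had 1 called higher and 0 lower. The levels of these genes were a reason for their choice, so the placement is a description.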
